A study of Rattus norvegicus with 15 samples.

Results

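The genes described here for the most part encode the nuclear-encoded subunits of the mitochondrial respiratory chain and ATP synthase, measured by RNA sequencing in rat retina. They were chosen by gene symbol alone, as the symbols of the Nduf, Sdh, Uqcr, Cox4 to Cox8 and Atp5 families, and by a mean level of at least about the log2 of 10 on the deposited log2 scale over all 15 libraries. Of the 87 genes with such a symbol, 81 had that level, out of 15424 genes that had it among the 20375 listed. By symbol, 38 belonged to complex I, 4 to complex II, 8 to complex III, 15 to complex IV and 16 to complex V. The 38 include Ndufv3-ps1, whose symbol has the suffix of a pseudogene, and Ndufa4, known today to belong to complex IV. The 16 include Atp5if1, which encodes no subunit. No measured difference between groups entered the choice.

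Each library was made from retinal tissue of wild-type Sprague-Dawley rats at postnatal week 12, labelled as day 31 after transplantation, with 3 libraries in each of 5 groups. The NT group was healthy. The other 4 groups received sodium iodate (NaIO3), an oxidant that damages the retinal pigment epithelium and then the photoreceptors, given systemically at 40 mg/kg. The sham group received NaIO3 and no cells, and by the study's methods it was injected with the vehicle of the cells. The MSC group received human mesenchymal stem cells from Wharton's jelly in the vitreous before NaIO3, and the MSCEPO group received such cells transduced with a lentivirus to express human erythropoietin (EPO). The DPSC group received cells that the labels name DPSC without spelling the name out. Rats given cells also received dexamethasone at 2 mg/kg and then cyclosporin at 10 mg/kg/day, which the NT and sham groups are not stated to have received. Cells and immunosuppression therefore cannot be told apart in a comparison of a cell group with NT or sham. The sources do not say which libraries came from which animals, so p-values measure the spread between these libraries.

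The respiratory chain passes electrons from NADH (complex I) and succinate (complex II) through complex III to complex IV, which reduces oxygen, and the proton gradient built on the way drives ATP synthase (complex V). Most subunits are encoded in the nucleus, and a core set in complexes I, III, IV and V is encoded in mitochondrial DNA. The retina is among the tissues with the highest oxygen use, and photoreceptors pack mitochondria densely in their inner segments. Transcription of the nuclear genes is known to be driven by NRF1, by the ETS-family factor GABP and by the estrogen-related receptors, with PGC-1α (Ppargc1a) as coactivator.

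Values are rlog units, the authors' regularized log2 expression values, and a difference of 1 unit is a doubling. Because rlog shrinks each gene toward its own mean, fold changes are understated for weakly expressed genes, and because it is not scaled to transcript length, levels are not compared between genes. In whole retina, fewer cells of a type and less RNA per cell cannot be told apart. A gene was called when its adjusted p was under 0.05 in 1 limma fit of all 15 libraries over 15424 genes, with Benjamini-Hochberg adjustment. Medians over 12 photoreceptor markers lay within 0.08 of the NT mean in each NT library. Because NT is the reference, this shows only that the NT libraries were alike, and it is no check of the tissue.

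Promoters of the genes the results turn on are shown first. RefSeq promoter sequences (build GRCr8, 250 bases before to 50 after each gene's start) matched 70 of the 80 distinct symbols. Searched on both strands, the ETS motif CCGGAAG was in 20 of the 70, or 28.6%, against 8.75% of 33469 promoters of the same length. The NRF1 core GCGCATGC was in 8, or 11.4%, against 2.47%, and the estrogen-related receptor half-site TCAAGGTCA was in 2, or 2.86%, against 0.433%. At least 1 of these motifs was in 25 of the 70. The 33469 were all promoter entries of that length, whether or not the gene was tested here, while 1 entry was used for each of the 70 symbols. The 100 bases before the start are printed for 4 of the genes called lower in a cell group than in NT (Ndufa4, Ndufb6, Cox7a2 and Atp5f1b), for Ndufa4l2, called higher in MSCEPO and DPSC, and for 1 gene with each further motif or arrangement (Cox8a, Uqcrc1 and Atp5mc3). Capitals mark a motif on either strand.
Ndufa4 (chr4:40975560-40975659, minus strand): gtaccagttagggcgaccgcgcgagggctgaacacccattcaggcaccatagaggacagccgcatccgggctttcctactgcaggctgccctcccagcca
Ndufb6 (chr5:60206153-60206252, minus strand): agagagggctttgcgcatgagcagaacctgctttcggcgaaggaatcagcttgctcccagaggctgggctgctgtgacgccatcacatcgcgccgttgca
Cox7a2 (chr8:89601150-89601249, minus strand): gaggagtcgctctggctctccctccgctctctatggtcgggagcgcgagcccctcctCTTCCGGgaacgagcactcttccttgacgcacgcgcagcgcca
Atp5f1b (chr7:1099958-1100057, plus strand): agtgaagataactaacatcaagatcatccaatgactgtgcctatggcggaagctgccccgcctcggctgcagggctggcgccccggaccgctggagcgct
Ndufa4l2 (chr7:65242069-65242168, plus strand): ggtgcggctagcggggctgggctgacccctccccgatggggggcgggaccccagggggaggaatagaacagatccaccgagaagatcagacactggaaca
Cox8a (chr1:213833624-213833723, minus strand): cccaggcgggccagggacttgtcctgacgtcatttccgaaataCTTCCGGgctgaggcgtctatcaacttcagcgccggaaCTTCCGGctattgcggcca
Uqcrc1 (chr8:118468123-118468222, plus strand): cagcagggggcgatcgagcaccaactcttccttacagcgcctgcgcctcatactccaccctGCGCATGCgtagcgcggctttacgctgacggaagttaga
Atp5mc3 (chr3:79220665-79220764, minus strand): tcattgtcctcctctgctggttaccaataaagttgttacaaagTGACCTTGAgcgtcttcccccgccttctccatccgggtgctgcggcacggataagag

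The level of the respiratory chain genes moved library by library as well as group by group. Taking each gene relative to its own mean in NT, the median over the 81 genes was 0.07, 0.12 and -0.19 rlog units in the 3 NT libraries, -0.17, 0.00 and -0.24 in sham, -0.07, -0.34 and -0.34 in MSC, -0.32, -0.36 and 0.25 in MSCEPO, and -0.18, -0.37 and -0.06 in DPSC. NT replicate 3 lay above the NT mean for 1 of the 81 genes, against 70 and 76 for the other 2 NT libraries, so the genes deviated together within an unmanipulated group. The 81 genes are therefore not independent of each other, and a count of genes on 1 side of 0 carries the shift of single libraries.

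**Figure D1:**
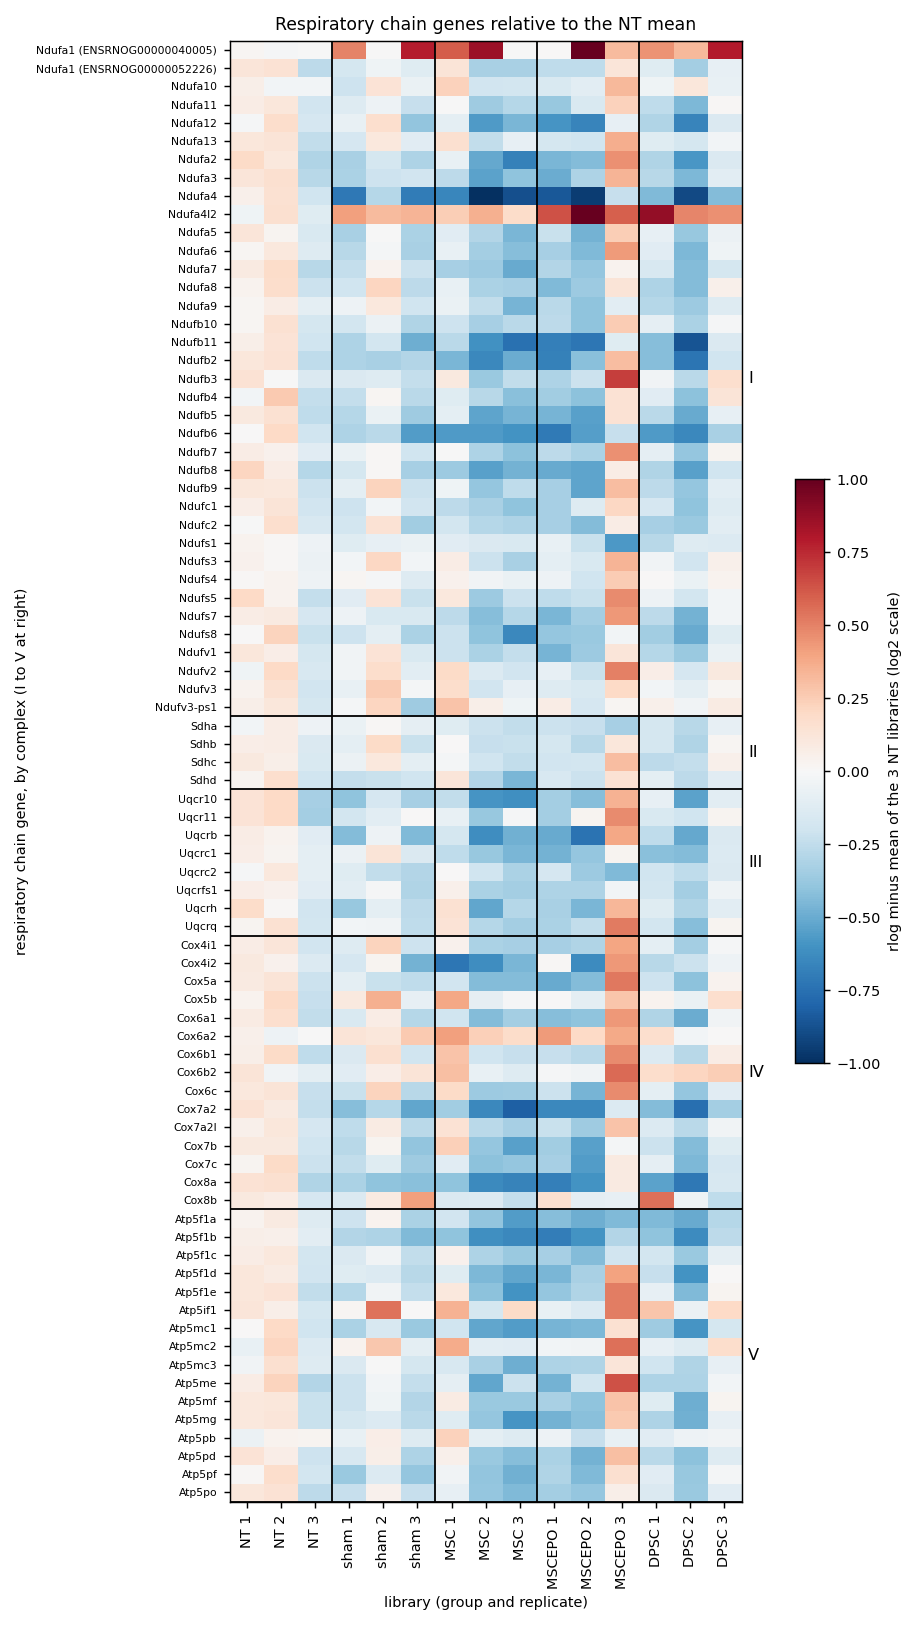
Heat map of 80 of the 81 genes (rows, by complex) in the 15 libraries (columns), as rlog minus the gene's mean in the 3 NT libraries, with blue below and red above and the scale limited at -1 and 1. Most rows are blue in NT replicate 3, sham replicates 1 and 3, MSC replicates 2 and 3, MSCEPO replicates 1 and 2 and DPSC replicates 1 and 2. A smaller majority is below the NT mean in MSC replicate 1 (49 of the 81 genes) and DPSC replicate 3 (54 of 81). Most rows are red in MSCEPO replicate 3, while Ndufa4 is blue and Ndufa4l2 red in all 12 libraries given NaIO3.

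MSCEPO replicate 3 stood apart from the other 2 libraries of its group. It was the highest of all 15 libraries for 39 of the 81 genes and higher than both other MSCEPO libraries for 71. Its level was above the NT mean for 64 genes, and the 3 highest of these differences were those of Ndufb3 (0.69 rlog units), Atp5me (0.64) and Ndufa4l2 (0.60). For 17 genes it was below, led by Ndufs1 (-0.57), Atp5f1a (-0.44), Uqcrc2 (-0.44) and Sdha (-0.33). These encode the largest complex I subunit, the α subunit of ATP synthase, a core protein of complex III and the flavoprotein of complex II. The mean of the other 2 MSCEPO libraries relative to NT was -0.26 for Ndufb3, -0.33 for Atp5me and 0.86 for Ndufa4l2. For Ndufs1, Atp5f1a, Uqcrc2 and Sdha it was -0.15, -0.46, -0.27 and -0.22. Ndufa4l2 and Atp5f1a thus did not set this library apart from its group. Markers of other tissues were also high in this library: 6 lens genes had a median 3.88 above NT, and skeletal muscle genes 0.74. Lens markers were also high in DPSC replicates 1 and 3 (5.62 and 4.92), whose respiratory chain medians were -0.18 and -0.06. The part of lens, muscle or other tissue in the level of the respiratory chain genes was not tested. The counts and medians that change without MSCEPO replicate 3, and the calls gained without it among the genes described, are given beside those of all 15 libraries.

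**Figure D2:**
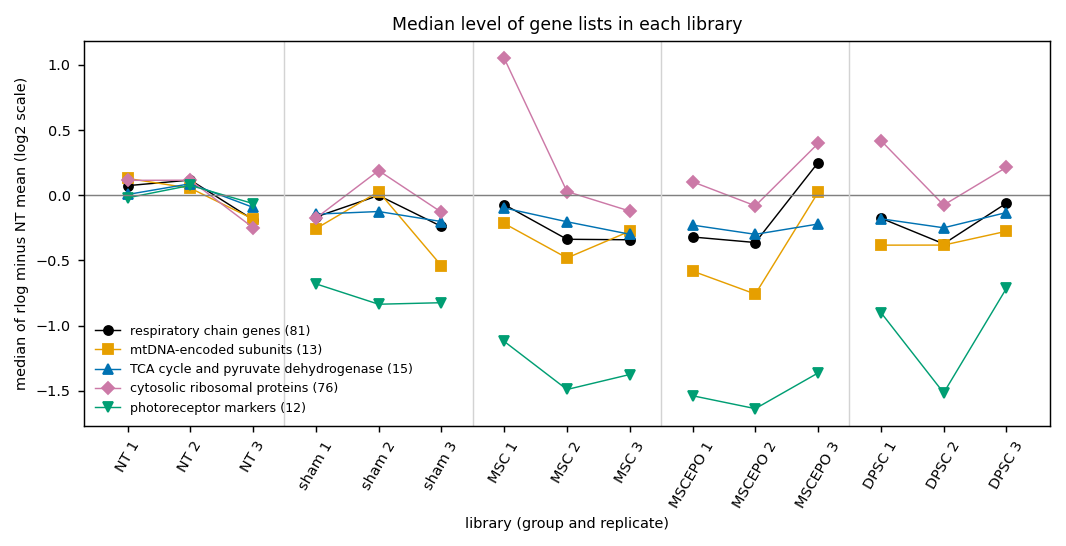
Median over each gene list of rlog minus the NT mean (vertical axis, log2 scale) in the 15 libraries (horizontal axis), with the number of genes in parentheses and lines joining libraries of 1 group only to guide the eye. Respiratory chain genes lie between -0.37 and 0.25 and TCA cycle genes between -0.30 and 0.09, photoreceptor markers lie 0.68 to 1.64 below it after NaIO3, and the ribosomal protein genes reach 1.05 above it in MSC replicate 1.

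After NaIO3 alone, no respiratory chain gene was called different from NT. In sham against NT, 0 of 81 were called higher, where 0.558% of all genes tested were, and 0 were called lower, where 0.331% were. At an unadjusted p under 0.05, 1 gene was higher and 4 were lower, against 6.29% and 6.06% of all genes. The median difference was -0.14 rlog units, or -9.09%, with 69 of 81 genes below 0, where 48.8% of all genes tested were below 0 and their median was 0.00. The complexes had medians of -0.12 (I), -0.05 (II), -0.18 (III), -0.12 (IV) and -0.16 (V). The 4 genes with an unadjusted p under 0.05 and a lower level in sham were Ndufa4, Ndufb6, Cox7a2 and Atp5f1b, given with their values in every library. Their adjusted p (limma, Benjamini-Hochberg) in sham against NT was 0.25, 0.27, 0.34 and 0.27.

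Against NT, each cell group held called genes, and they were few. In MSC, 1 of 81 genes was called higher, where 11.0% of all genes tested were, and 5 were called lower (Ndufa4, Ndufb6, Cox7a2, Atp5f1a and Atp5f1b), where 6.37% were. In MSCEPO, 2 were called higher and 4 lower, against 5.83% and 5.81% of all genes. In DPSC, 1 was called higher and 0 lower, against 1.43% and 1.41%; at an unadjusted p under 0.05, 9 were lower in DPSC, where 7.90% of all genes were. With all 15 libraries, respiratory chain genes were thus called lower at about the rate of all genes in MSC and MSCEPO, which did not hold without MSCEPO replicate 3, as the counts without it show. The median difference from NT was -0.24 in MSC (72 of 81 below 0), -0.14 in MSCEPO (68 of 81) and -0.19 in DPSC (73 of 81), where 49.7%, 50.5% and 49.4% of all genes were below 0.

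The number of genes called lower depended on single libraries. In MSC it was 20 without MSCEPO replicate 3, which enters that comparison only through the shared estimate of spread, and 2 without NT replicate 1, 1 without NT replicate 2, 2 without MSC replicate 2 and 3 without MSC replicate 3. In MSCEPO it was 16 without MSCEPO replicate 3, 2 without sham replicate 1, MSC replicate 2 or DPSC replicate 1 (Atp5f1a and Atp5f1b in each), 2 without MSCEPO replicate 1 (Ndufs1 and Uqcrc2, and 0 of the 4), and 0 without NT replicate 1, NT replicate 2 or MSCEPO replicate 2. In DPSC it was 3 (Ndufa4, Ndufb6 and Atp5f1b) without MSCEPO replicate 3. Without that library, 11.4% of all genes were called lower in MSC, 9.19% in MSCEPO and 4.25% in DPSC. The 20 of 81 and 16 of 81 were above these shares. However, that library was singled out after these same genes were seen to be high in it. Leaving it out therefore lowers their MSCEPO mean by construction. The genes also deviated together within libraries, so the counts without it describe that fit and are no test of the 81 genes.

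The genes called lower without MSCEPO replicate 3 covered complexes I, III, IV and V, and complex II had 0. In MSC they were 10 genes of complex I, 3 of complex III, 3 of complex IV and 4 of complex V, and in MSCEPO 8, 2, 3 and 3. These counts go by symbol, so Ndufa4 is in complex I in both. Both comparisons share the NT libraries, so a gene called in both does not hold 2 independent results. Called in MSC alone were Ndufa3, Ndufa7, Ndufc1, Ndufs8, Uqcr10, Cox4i2 and Atp5mc3, and in MSCEPO alone Ndufa12, Ndufv1 and Cox5a. Those called in both included Ndufb2, Ndufb8 and Ndufb11 of the membrane arm of complex I and Ndufs7, a core iron-sulfur subunit. They also included Uqcrb and Uqcrc1 of complex III, Cox8a of complex IV, and Atp5mc1, which encodes the c subunit of the ATP synthase ring. The differences of these 8 genes from NT in MSC ran from -0.33 (Ndufs7) to -0.57 (Cox8a), and in MSCEPO from -0.40 (Ndufs7) to -0.70 (Ndufb11). The median of all 81 genes was then -0.34 in MSCEPO against NT, or -21.1%, with 77 of 81 below 0.

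**Figure D3:**
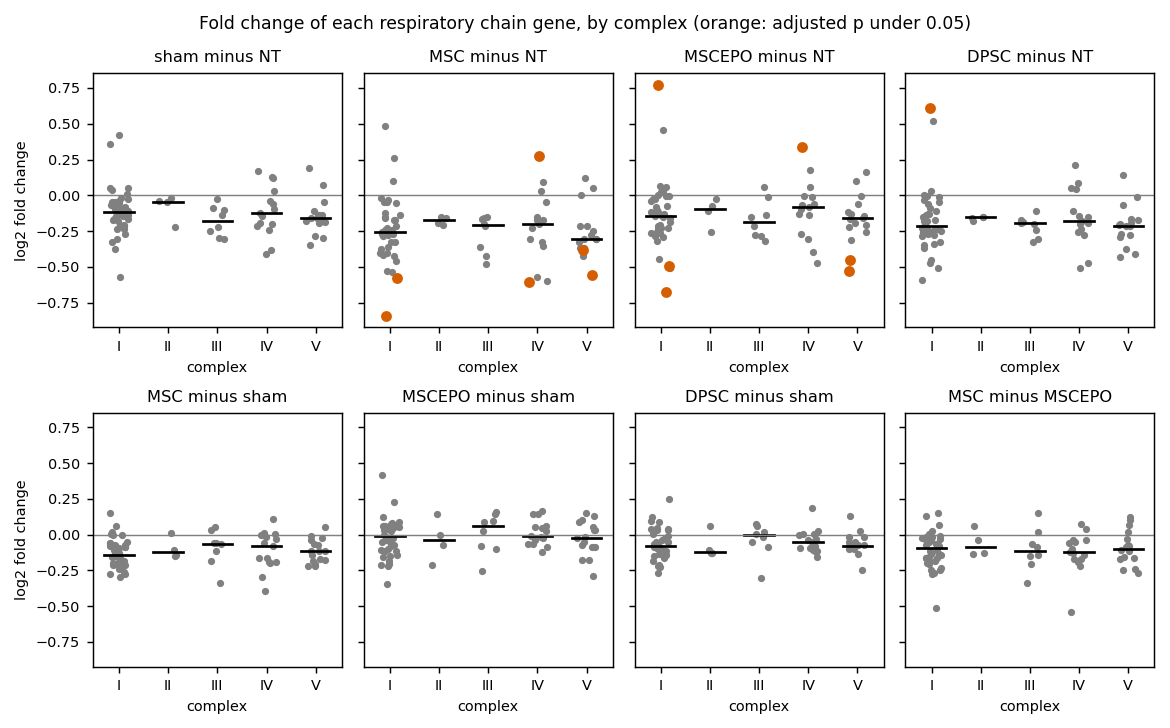
Log2 fold change of each of the 81 genes (points) in 8 comparisons (panels) by complex (horizontal axis), with the median of each complex as a black bar and genes with an adjusted p under 0.05 in orange. The bars lie below 0 for all 5 complexes in the 4 comparisons with NT, and orange points occur only in the comparisons of a cell group with NT.

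Ndufa4, named as a complex I subunit but known today to belong to complex IV, had the largest decrease. Its levels were 12.78, 12.89 and 12.53 rlog units in NT, 12.02, 12.45 and 12.03 in sham, 12.08, 11.74 and 11.86 in MSC, 11.88, 11.79 and 12.51 in MSCEPO, and 12.29, 11.83 and 12.30 in DPSC. The 3 NT libraries were the 3 highest of the 15, with MSCEPO replicate 3 just below NT replicate 3. Ndufa4 fell by 44.2% from NT in MSC (log2 fold change -0.84, SE 0.20, adjusted p = 0.013 by limma), and it fell by 37.4% in MSCEPO (-0.68, SE 0.20, adjusted p = 0.047). In sham and DPSC the differences were -0.57 (adjusted p = 0.25) and -0.59 (adjusted p = 0.14). The MSC call was lost without NT replicate 2 (adjusted p = 0.057) or MSC replicate 2 (adjusted p = 0.051). The MSCEPO call was lost under 16 of 21 alternatives, with an adjusted p of up to 0.157, without NT replicate 2, and it was kept without MSCEPO replicate 3 (-0.90, adjusted p = 0.0057).

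Ndufb6 encodes an accessory subunit of the membrane arm of complex I. It had 9.76, 9.95 and 9.55 rlog units in NT, 9.45, 9.49 and 9.19 in sham, 9.19, 9.19 and 9.16 in MSC, 9.05, 9.20 and 9.52 in MSCEPO, and 9.19, 9.11 and 9.43 in DPSC. All 12 libraries given NaIO3 were below the 3 NT libraries, and the 3 MSC libraries lay within an SD of 0.02 of each other. It fell by 32.9% in MSC (-0.58, SE 0.14, adjusted p = 0.015 by limma), a call lost only without NT replicate 2 (adjusted p = 0.069). It fell by 29.1% in MSCEPO (-0.50, SE 0.14, adjusted p = 0.038), a call lost under 11 of 21 alternatives with an adjusted p of up to 0.156, without NT replicate 2. In DPSC the difference was -0.51 (adjusted p = 0.075).

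Among the core subunits of complex I, which carry the flavin and iron-sulfur clusters, 0 of the 5 nuclear genes described here were called in any comparison of the 15 libraries. In MSC against NT, the iron-sulfur subunit Ndufs8 had the largest difference, -0.42 (adjusted p = 0.078, and 0.042 without MSCEPO replicate 3), followed by Ndufs7 at -0.33 (adjusted p = 0.28) and the flavoprotein Ndufv1 at -0.26 (adjusted p = 0.25). Ndufv2, the other flavoprotein-module subunit examined, differed by -0.05. Ndufv1 in MSCEPO differed by -0.24 (adjusted p = 0.32), and it was called lower without MSCEPO replicate 3 (-0.42, adjusted p = 0.027). Ndufs1 had its largest difference in MSCEPO, -0.29 (adjusted p = 0.10). Ndufs1 was also the gene for which MSCEPO replicate 3 lay farthest below the NT mean.

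Complex II, the TCA cycle enzyme that oxidises succinate, had the median closest to NT of the 5 complexes in sham. Its catalytic flavoprotein Sdha had 12.23, 12.33 and 12.21 rlog units in NT, 12.19, 12.27 and 12.17 in sham, 12.13, 12.04 and 12.01 in MSC, 12.04, 12.03 and 11.92 in MSCEPO, and 12.08, 11.97 and 12.17 in DPSC. Each library of a cell group was below the lowest NT library, and sham overlapped NT. Sdha differed from NT by -0.26 in MSCEPO (SE 0.079, adjusted p = 0.052), by -0.19 in MSC (adjusted p = 0.11) and by -0.18 in DPSC (adjusted p = 0.27), and none of these passed the test. The iron-sulfur subunit Sdhb and the membrane anchors Sdhc and Sdhd differed from NT by -0.02 to -0.22 over the 4 groups.

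In complex III, 0 of 8 genes were called in a comparison of the 15 libraries. The core protein Uqcrc1, whose promoter holds an NRF1 core above, had 11.56, 11.53 and 11.40 rlog units in NT, 11.43, 11.62 and 11.35 in sham, 11.24, 11.11 and 11.04 in MSC, 11.02, 11.11 and 11.52 in MSCEPO, and 11.08, 11.06 and 11.36 in DPSC. MSC and DPSC lay below NT without overlap, and MSCEPO did except for replicate 3. The differences from NT were -0.36 in MSC (adjusted p = 0.079), -0.28 in MSCEPO (adjusted p = 0.20), -0.33 in DPSC (adjusted p = 0.23) and -0.03 in sham (adjusted p = 0.99). The other core protein, Uqcrc2, differed by -0.32 in MSCEPO (adjusted p = 0.060) and by -0.17 in MSC (adjusted p = 0.29). The Rieske iron-sulfur protein Uqcrfs1 differed by -0.14 to -0.22 over the 4 groups (adjusted p from 0.30 to 0.78).

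In complex IV, Cox7a2, the broadly expressed form of subunit 7A, was called lower. Cox7a2 had 11.10, 11.05 and 10.72 rlog units in NT, 10.53, 10.67 and 10.44 in sham, 10.61, 10.32 and 10.14 in MSC, 10.31, 10.31 and 10.82 in MSCEPO, and 10.53, 10.20 and 10.62 in DPSC. The NT libraries were above all others except MSCEPO replicate 3. It fell by 34.2% in MSC (-0.60, SE 0.17, adjusted p = 0.029 by limma), and this call was lost without NT replicate 1, NT replicate 2, MSC replicate 2 or MSC replicate 3, with an adjusted p of up to 0.108. In MSCEPO the difference was -0.47 (adjusted p = 0.094) and in DPSC -0.51 (adjusted p = 0.14).

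Cox5a and Cox5b encode nuclear subunits of complex IV without tissue-restricted forms. Cox5a differed from NT by -0.35 in MSC (adjusted p = 0.32) and Cox5b by 0.10 (adjusted p = 0.74), and neither passed the test in any comparison of the 15 libraries. Without MSCEPO replicate 3, Cox5a was called lower in MSCEPO than in NT (-0.47, adjusted p = 0.035, against -0.14 and 0.74 with it). Cox8a, the broadly expressed form of subunit 8 with 2 ETS motifs in the promoter above, differed from NT by -0.57 in MSC (adjusted p = 0.070), -0.40 in MSCEPO (adjusted p = 0.22), -0.47 in DPSC (adjusted p = 0.25) and -0.38 in sham (adjusted p = 0.49).

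Tissue-restricted isoforms of complex IV were low or differed little. Cox6a2, the heart and skeletal muscle form of subunit 6A, lay just above the level needed for inclusion, with a mean of 3.44 rlog units, and Cox7a1, the muscle form of 7A, lay just below it at 3.22. Cox6a2 had 3.323, 3.225 and 3.269 rlog units in NT, 3.40, 3.39 and 3.54 in sham, 3.68, 3.51 and 3.45 in MSC, 3.70, 3.47 and 3.65 in MSCEPO, and 3.44, 3.25 and 3.28 in DPSC. The sham, MSC and MSCEPO libraries were all above NT, and DPSC overlapped NT. It rose 1.21-fold in MSC (0.28, SE 0.087, adjusted p = 0.046 by limma) and 1.26-fold in MSCEPO (0.34, SE 0.087, adjusted p = 0.027), and these calls were lost under 15 and 5 of 21 alternatives, with adjusted p of up to 0.157, without MSC replicate 1, and 0.0941, without NT replicate 2. The MSC call was among those lost when each library was centred on its median, with no filter on low values, and without each of the 3 NT libraries in turn. Skeletal muscle markers, 6 of 8 found, had medians of -0.10, -0.10 and 0.21 relative to NT in the MSC libraries and -0.05, 0.00 and 0.74 in MSCEPO, and their part in Cox6a2 was not tested. Cox6b2 and Cox8b, the testis form of 6B and the muscle form of 8, differed from NT by 0.03 to 0.21 and by -0.17 to 0.12 over the 4 groups, with no call. The common forms Cox6a1 and Cox6b1 differed by -0.12 to -0.32 and by -0.01 to -0.11, and Cox7a2l, a relative of Cox7a2 known for joining complexes III and IV, by -0.10 to -0.15, with no call.

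Cox4i2, the form of subunit 4 that is known from lung and from low oxygen, had 9.75, 9.70 and 9.52 rlog units in NT, 9.49, 9.68 and 9.18 in sham, 8.93, 9.03 and 9.20 in MSC, 9.67, 9.02 and 10.09 in MSCEPO, and 9.37, 9.44 and 9.61 in DPSC. The MSC libraries were below NT, and the MSCEPO libraries spanned more than the range of all NT libraries. Cox4i2 differed from NT by -0.60 in MSC (SE 0.21, adjusted p = 0.075, and 0.021 without MSCEPO replicate 3) and from MSCEPO by -0.54 in MSC (adjusted p = 0.75). The common form Cox4i1 differed from NT by -0.04 to -0.20 over the 4 groups (adjusted p from 0.53 to 0.99).

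Ndufa4l2, a paralog of Ndufa4 known as a target of hypoxia-inducible factor and as a gene expressed by pericytes, had the largest increase. Its levels were 5.305, 5.501 and 5.227 rlog units in NT, 5.75, 5.66 and 5.68 in sham, 5.59, 5.70 and 5.53 in MSC, 5.98, 6.42 and 5.94 in MSCEPO, and 6.22, 5.83 and 5.80 in DPSC. All 12 libraries given NaIO3 were above the 3 NT libraries, and the MSCEPO and DPSC libraries were above all sham and MSC libraries. Ndufa4l2 rose 1.71-fold from NT in MSCEPO (0.77, SE 0.15, adjusted p = 0.0058 by limma), a call kept under 21 of 21 alternatives, leaving out a library included (adjusted p of up to 0.0479), but smaller than the 1 unit that a stricter rule asked for. It rose 1.52-fold in DPSC (0.61, SE 0.15, adjusted p = 0.047), a call lost under 13 of 20 alternatives with an adjusted p of up to 0.184, without NT replicate 3. In sham the difference was 0.36 (adjusted p = 0.34) and in MSC 0.26 (adjusted p = 0.26). MSC and MSCEPO differed by -0.51 (unadjusted p = 0.0044 in the limma fit, adjusted p = 0.75), so this difference between the cell groups did not pass the test. The 9 pericyte and smooth muscle markers had a median of 0.35 relative to NT in sham, -0.01 in MSC, 0.02 in MSCEPO and 0.09 in DPSC, with 0 called.

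**Figure D4:**
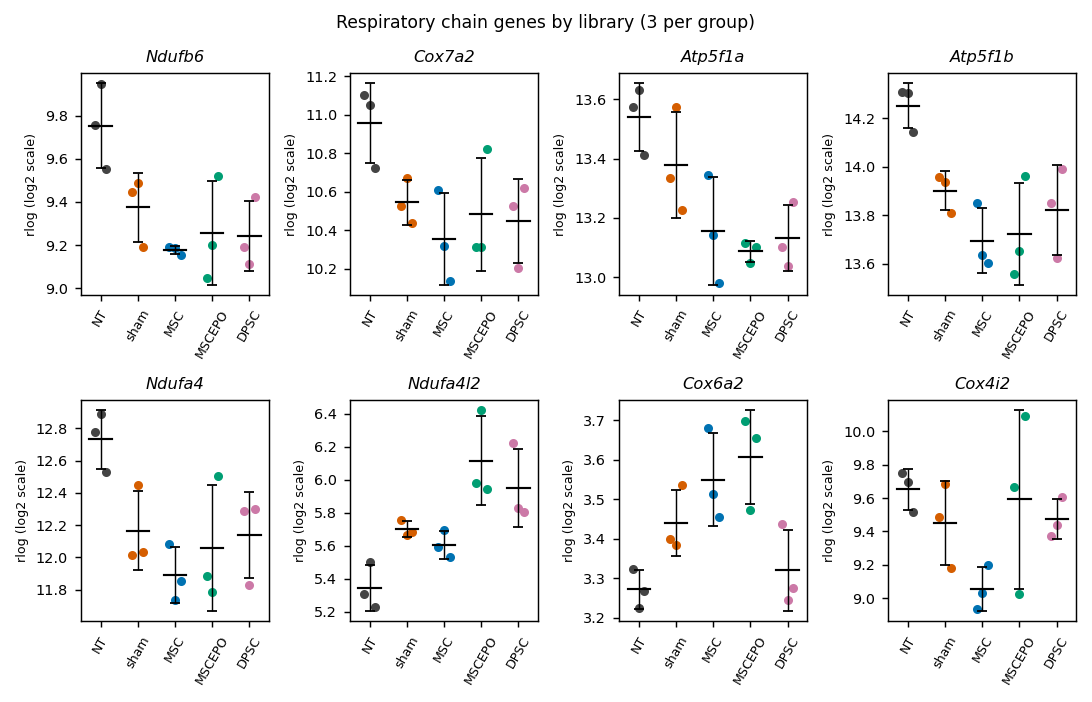
Level (rlog, log2 scale, vertical axes that do not start at 0 and differ between panels) of 8 genes in each library, with 3 libraries per group as points and the mean ± SD as bars. Ndufb6, Atp5f1b and Ndufa4 are highest in the 3 NT libraries, Ndufa4l2 is lowest there, and MSCEPO replicate 3 is the highest MSCEPO point for Ndufb6, Cox7a2, Atp5f1b, Ndufa4 and Cox4i2.

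In complex V, both subunits of the catalytic hexamer were called lower. Atp5f1b, the catalytic β subunit, had 14.31, 14.30 and 14.14 rlog units in NT, 13.96, 13.94 and 13.81 in sham, 13.85, 13.64 and 13.60 in MSC, 13.56, 13.65 and 13.96 in MSCEPO, and 13.85, 13.62 and 13.99 in DPSC. The 3 NT libraries were above all 12 others. Atp5f1b fell by 31.9% in MSC (-0.56, SE 0.13, adjusted p = 0.013 by limma), a call lost only without NT replicate 1 (adjusted p = 0.0502). It fell by 30.6% in MSCEPO (-0.53, SE 0.13, adjusted p = 0.021), a call lost in a fit of the 2 groups (adjusted p = 0.0865) and without NT replicate 1, NT replicate 2, MSCEPO replicate 1 or MSCEPO replicate 2. In sham and DPSC the differences were -0.35 (adjusted p = 0.27) and -0.43 (adjusted p = 0.10).

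Atp5f1a, the α subunit, was close to equal in the 3 MSCEPO libraries. It had 13.57, 13.63 and 13.41 rlog units in NT, 13.33, 13.57 and 13.23 in sham, 13.35, 13.14 and 12.98 in MSC, 13.11, 13.05 and 13.10 in MSCEPO, and 13.10, 13.04 and 13.25 in DPSC. Sham overlapped NT, and no library of a cell group did. It fell by 26.9% in MSCEPO (-0.45, SE 0.12, adjusted p = 0.028 by limma), and it fell by 23.3% in MSC (-0.38, SE 0.12, adjusted p = 0.043). These calls were lost under 5 and 13 of 21 alternatives, with adjusted p of up to 0.107 and 0.144, both without NT replicate 2. The DPSC difference was -0.41 (adjusted p = 0.090). Among the 3 genes for the c subunit of the ring, which encode the same mature protein behind different import sequences, Atp5mc1 differed from NT by -0.43 in MSC (adjusted p = 0.12), Atp5mc3 by -0.33 (adjusted p = 0.11, and 0.033 without MSCEPO replicate 3) and Atp5mc2 by 0.05 (adjusted p = 0.89). Atp5if1, which encodes the inhibitor of ATP synthase and is no subunit, differed from NT by 0.10 to 0.19 over the 4 groups (adjusted p from 0.74 to 0.81).

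The comparisons share libraries, so the differences from sham are given beside those from NT and not as independent results. No respiratory chain gene was called between a cell group and sham or between MSC and MSCEPO. In MSC against sham, 0 of 81 were called in either direction, where 0% and 0% of all genes were, and at an unadjusted p under 0.05, 0 were higher and 1 was lower (Uqcrc1, -0.34), against 9.49% and 3.82% of all genes. In MSCEPO against sham, 0 were called, where 0% of all genes were higher and 0.0259% lower, and 1 was higher (Ndufa4l2, 0.42) and 2 lower (Sdha, -0.21, and Atp5f1a, -0.29) at an unadjusted p under 0.05, against 3.19% and 5.12%. In DPSC against sham, 0 were called, where 0% and 0.0195% of all genes were, and 0 were higher and 1 was lower (Uqcrc1, -0.30) at an unadjusted p under 0.05, against 0.985% and 1.39%. In MSC against MSCEPO, 0 were called, where 0% and 0% were, and 0 were higher and 2 lower (Ndufa4l2 and Cox4i2) at an unadjusted p under 0.05, against 2.83% and 0.966%.

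The median difference from sham was -0.12 in MSC (69 of 81 below 0), -0.01 in MSCEPO (43 of 81) and -0.07 in DPSC (60 of 81). Without MSCEPO replicate 3, the MSCEPO median was -0.18 with 76 of 81 below 0. Between MSC and MSCEPO the median was -0.11, with 67 of 81 lower in MSC, and without MSCEPO replicate 3 it was 0.08, with 13 of 81 lower in MSC, so the direction of this difference rested on that library.

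The 13 subunits encoded in mitochondrial DNA, which the symbols did not select, all had a mean below that of NT in each of the 4 groups. Of all genes, 48.8% in sham, 49.7% in MSC, 50.5% in MSCEPO and 49.4% in DPSC did. The median difference of the 13 subunits from NT was -0.29 in sham, -0.39 in MSC, -0.45 in MSCEPO and -0.35 in DPSC. By library, their median relative to NT was -0.58 and -0.76 in MSCEPO replicates 1 and 2 and 0.02 in replicate 3, so replicate 3 stood above its group here as well. In sham, MSC and DPSC, 0 of 13 were called, where 0.331%, 6.37% and 1.41% of all genes were called lower. In MSCEPO, 2 of 13 were called lower (limma, Benjamini-Hochberg), where 5.81% of all genes were. These 2 were ATP8 (-0.83, adjusted p = 0.014) and ND4L (-0.75, adjusted p = 0.014). Their genes overlap ATP6 and ND4 on the mitochondrial genome, so their reads can be split in counting. ND4L had 14.38, 14.45 and 14.03 rlog units in NT and 13.74, 13.44 and 13.43 in MSCEPO, and for this gene MSCEPO replicate 3 was the lowest of its group. Both calls were lost without NT replicate 1, NT replicate 2 or MSCEPO replicate 2, with adjusted p of up to 0.0618 for ND4L and 0.0625 for ATP8. COX1, the catalytic subunit of complex IV, differed from NT by -0.30 in sham and -0.57 in MSCEPO, and CYTB by -0.33 and -0.52, with no call.

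Of 7 genes that serve the chain outside the selected symbols, 2 were called lower in MSC and 1 in MSCEPO, where 6.37% and 5.81% of all genes were. In sham and DPSC 0 were called, where 0.331% and 1.41% were called lower. The 7 stand for coenzyme Q synthesis, cytochrome c and c1, the acyl carrier Ndufab1 and the ADP/ATP carriers. All 7 had a mean below that of NT in each group, where 48.8% to 50.5% of all genes did. The calls were those of ADP/ATP carriers, which exchange ATP for ADP across the inner membrane. Slc25a5 fell in MSC (-0.61, adjusted p = 0.046 by limma) and MSCEPO (-0.83, adjusted p = 0.015), and Slc25a4 fell in MSC (-0.37, adjusted p = 0.049). The MSC calls were lost under 16 and 15 of 21 alternatives (adjusted p of up to 0.155 and 0.176, both without NT replicate 2), and the MSCEPO call was lost without NT replicate 2 (adjusted p = 0.0672) or MSCEPO replicate 2. Of 43 assembly factors, 3 were called lower in MSC (Ttc19, Cox20 and Ndufaf7), 1 in MSCEPO and 1 in DPSC (Ttc19 in both), where 6.37%, 5.81% and 1.41% of all genes were, and 0 were called higher. Ttc19, which serves the maturation of complex III, had 9.69, 9.60 and 9.76 rlog units in NT, 9.55, 9.56 and 9.54 in sham, 9.24, 9.36 and 9.35 in MSC, 9.35, 9.28 and 9.30 in MSCEPO, and 9.41, 9.28 and 9.30 in DPSC. All 9 libraries of the cell groups were below all 3 sham libraries, which were below all 3 NT libraries. Ttc19 fell by 22.4% in MSC (adjusted p = 0.0067 by limma), it fell by 22.7% in MSCEPO (adjusted p = 0.0082), and it fell by 21.5% in DPSC (adjusted p = 0.029). The MSC call was kept under 21 of 21 alternatives, the MSCEPO call was lost in a fit of the 2 groups (adjusted p = 0.0863), and the DPSC call was lost in that kind of fit and without each NT library in turn, DPSC replicate 2 or DPSC replicate 3 (adjusted p of up to 0.14). Cox20 (-0.27, adjusted p = 0.048) and Ndufaf7 (-0.32, adjusted p = 0.032) serve complexes IV and I, and their calls were lost under 16 and 6 of 21 alternatives, both with the highest adjusted p without NT replicate 2 (0.148 and 0.0976).

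Of 15 genes of the TCA cycle and pyruvate dehydrogenase, 3 were called lower in MSC and 2 in MSCEPO, where 6.37% and 5.81% of all genes were, 0 were called in sham and DPSC, and 0 were called higher. Idh3a, the catalytic subunit of NAD-dependent isocitrate dehydrogenase, fell in MSC (-0.37, adjusted p = 0.016 by limma) and MSCEPO (-0.42, adjusted p = 0.012), as did Dld, the shared lipoamide dehydrogenase (-0.36, adjusted p = 0.018, and -0.42, adjusted p = 0.0099). The MSC calls were lost without NT replicate 2 (adjusted p = 0.0737 for Idh3a and 0.0767 for Dld), that of Dld also without NT replicate 1 or MSC replicate 3, and that of Idh3a in MSCEPO also without NT replicate 2. In a fit of the 2 groups both MSCEPO calls were lost (adjusted p = 0.0686 for Idh3a and 0.0896 for Dld). Mdh2, mitochondrial malate dehydrogenase, fell in MSC (-0.37, adjusted p = 0.0499), a call lost under 17 of 21 alternatives (adjusted p of up to 0.17, without NT replicate 1). The median of the TCA cycle genes in MSCEPO replicate 3 (-0.22) was like that of the other 2 MSCEPO libraries (-0.23 and -0.30).

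Among 13 regulators of respiratory chain genes, 1 was called lower than in NT in sham, 2 in MSC, 4 in MSCEPO and 1 in DPSC. Of all genes, 0.331%, 6.37%, 5.81% and 1.41% were called lower there, and 0 of the 13 were called higher. Esrrb, an estrogen-related receptor known to be strongly expressed in rods, had the largest differences: 11.35, 11.37 and 11.41 rlog units in NT, 10.66, 9.89 and 10.03 in sham, 9.12, 9.31 and 9.34 in MSC, 8.95, 8.82 and 8.74 in MSCEPO, and 10.22, 9.16 and 10.23 in DPSC. The NT libraries were far above all others, and the MSC and MSCEPO libraries were below all sham libraries. Esrrb fell by 77.0% in MSC (-2.12, SE 0.25, adjusted p = 0.00049 by limma), it fell by 82.8% in MSCEPO (-2.54, adjusted p = 0.00016), and it fell by 64.8% in DPSC (-1.51, adjusted p = 0.0089). These calls were kept under 21, 21 and 20 alternatives, all that could be computed (adjusted p of up to 0.0485). In sham it fell by 56.1% (-1.19, adjusted p = 0.0499), a call lost under 14 of 21 alternatives (adjusted p of up to 0.238, without sham replicate 2).

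Nrf1, which encodes the factor that binds the NRF1 core, fell by 30.0% in MSC (-0.51, SE 0.13, adjusted p = 0.020 by limma), and it fell by 34.6% in MSCEPO (-0.61, adjusted p = 0.012). The MSC call was lost without each NT library in turn, MSC replicate 2 (adjusted p = 0.0776) or MSC replicate 3, and the MSCEPO call was kept under 21 of 21 alternatives. It had 9.87, 9.86 and 9.79 rlog units in NT, 9.42, 9.57 and 9.42 in sham, 9.57, 9.17 and 9.23 in MSC, 9.26, 9.02 and 9.40 in MSCEPO, and 9.49, 9.17 and 9.52 in DPSC, with no overlap between NT and the others. Ppargc1a fell in MSCEPO (-0.93, SE 0.26, adjusted p = 0.034), where replicate 3 had 7.76 rlog units and the other 2 had 8.96 and 8.92 (-0.54 without replicate 3, adjusted p = 0.024), and Esrrg fell there as well (-0.46, adjusted p = 0.019). Both calls were lost without NT replicate 1 or NT replicate 3, with an adjusted p of up to 0.0755 for Esrrg. That of Ppargc1a was also lost without NT replicate 2, in a fit of the 2 groups (adjusted p = 0.155) and in a fit of the 12 libraries without DPSC. Esrra, Gabpa and Tfam were not called in any group (differences from NT of -0.05 to 0.16, -0.26 to 0.03 and -0.02 to 0.04).

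The respiratory chain genes with an NRF1 core did not stand out from the others in their values. In MSC against NT, the median difference was -0.28 for the 8 genes with the core and -0.25 for the 62 without. For the ETS motif it was -0.23 for 20 genes and -0.26 for 50. In MSCEPO the NRF1 medians were -0.12 and -0.15, and the ETS medians -0.14 and -0.14. These are descriptions of promoter letters and not tests of any factor.

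**Figure D5:**
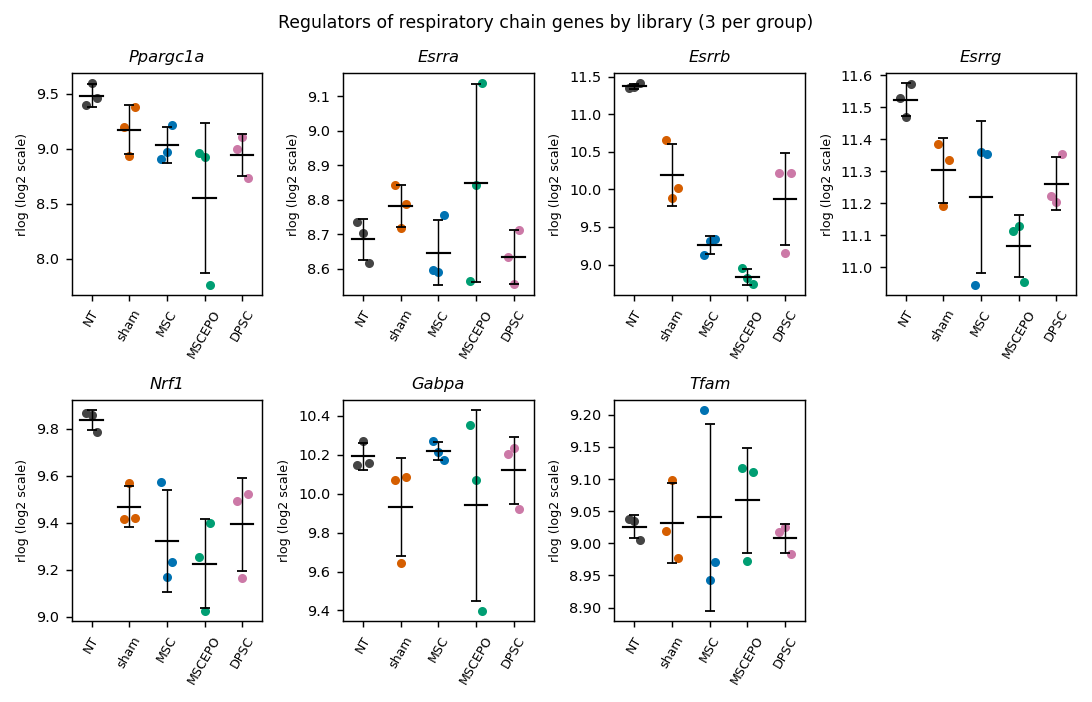
Level (rlog, log2 scale, vertical axes that do not start at 0 and differ between panels) of 7 regulators of respiratory chain genes in each library, with 3 libraries per group as points and the mean ± SD as bars. Esrrb is 1.19 to 2.54 lower in the NaIO3 groups than in NT, Nrf1 is lower with no overlap, and Ppargc1a has 1 low MSCEPO library.

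All 12 photoreceptor markers found were called lower in MSC and in MSCEPO, 10 in DPSC and 1 in sham, with medians of -1.35, -1.43, -1.01 and -0.81 relative to NT. In each group this median was farther below NT than that of the respiratory chain genes. Macrophage and microglia markers were called higher for 11 of 11 in MSC, 10 in MSCEPO, 2 in DPSC and 0 in sham, and T and NK cell markers for 8 of 8 in MSC and 0 in the others. MSC replicate 1 had the highest macrophage and T cell medians (3.88 and 3.76 above NT) and the highest ribosomal protein median (1.05), and its respiratory chain median (-0.07) was above those of the other 2 MSC libraries. MSCEPO replicate 3 had a photoreceptor median of -1.36 with a respiratory chain median of 0.25. Of 6 Müller glia markers, 4 were called higher and 1 lower in MSC, 3 higher in MSCEPO and 1 higher in DPSC. The 6 markers of the retinal pigment epithelium had medians of -1.19 in sham, -1.35 in MSC, -1.18 in MSCEPO and -0.86 in DPSC, with 2 called lower in MSC and 1 lower and 1 higher in MSCEPO. Inner retinal markers had medians of -0.05 in sham, -0.38 in MSC, -0.35 in MSCEPO and -0.28 in DPSC, with 0 of 12 called. The part of these cell types in the respiratory chain values was not tested.

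The genes at the edge of the choice carried little signal. Atp5md, Ndufs6, Cox7b2 and Cox8c had between -2.250 and -1.866 rlog units on average, with almost no spread between libraries, Ndufa10l1 had 1.25 and Cox7a1 3.22. Atp5md and Ndufs6 encode subunits that mammalian cells use throughout, so their values near the lowest of the table were not read as levels of expression. Ndufa1 was listed under 2 identifiers, with means of 9.61 (ENSRNOG00000052226) and 4.08 (ENSRNOG00000040005), and reads could be split between such copies. The second had 3.69 to 3.72 rlog units in NT and 3.70 to 4.75 in the other groups, with no call, and accounted with Ndufa4l2 for the 2 largest positive differences of complex I. Within groups, the SD of the 81 genes ran from 0.07 to 0.37 rlog units with a median of 0.23, against a median of 0.19 for all genes tested.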

How the data were processed

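RNA from rat retinas was sequenced in 15 libraries, and groups were taken from the sample titles. Per the labels and the study's methods, the authors quantified reads with Salmon 1.1.0 on Rnor_6.0, used tximport for gene-level values and DESeq2 for the rlog transform. The deposited values are on a log2 scale; library size had been accounted for. No counts were used, so depth is unknown and no interval or detection limit is given. A series table with 15 further columns of per-sample values was not used: it repeats the same values (0 differ), and a column without a name marks 88 genes.

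Genes with a mean rlog at or above the level (15424) were fitted with limma 3.58.1 in R 4.3.3 (with jsonlite 2.0.0): 5 group means, variance moderation with a trend, 8 comparisons, and Benjamini-Hochberg adjustment over all genes of each comparison. Leaving out MSCEPO replicate 3 was planned, and its fuller use was chosen after seeing the values. The steps were tested on simulated data. Fits were repeated with 8 kinds of alternative, among them leaving out each library. Genes were named by rule: members called in a comparison with sham or between sham and NT, isoform pairs, core subunits, the smallest p per complex and comparison with NT, up to 3 called genes per pathway list, 7 regulators, and members next to the level. Ndufb6, COX1, CYTB, the members at the extremes of MSCEPO replicate 3 and the genes called without it were named after their values were seen, as was the list of 76 ribosomal protein genes. The members and lists were chosen with earlier results of these data known. Mitochondrial genes were found under symbols without a prefix. Promoters are from RefSeq, build GRCr8. Values of 1 member and 1 marker gene are not reported here, although both stay in the fits, counts and medians.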

Additional observations from a re-analysis of the deposited data

How the results depend on the processing

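With an absolute log2 fold change over 1 also required, the counts of members called were 0 in every comparison. The 1 gene higher in MSC than in NT became 0 with no filter on low values, in a fit of the 2 groups, in a fit of the 12 libraries without DPSC, with libraries centred on their median and with no trend, and 0 to 1 when 1 library was left out. The 5 lower became 8 in a fit of the 2 groups (4 shared) and ran from 1 to 20 over single libraries left out. In MSCEPO, the 2 higher became 1 in the fit of the 2 groups (1 to 2 over libraries), and the 4 lower became 0 in that fit, 2 in the fit of 12 libraries and 0 to 16 over libraries. In DPSC, the 1 higher became 0 with no filter and in the fit of the 2 groups (0 to 1 over libraries), and the 0 lower ran from 0 to 3. The cause of these changes was not tested.

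The deviations of same-numbered libraries from their group means had r from -0.44 to 0.65 over 30 pairs, with 12 over 0.1. Replicate 3 gave both ends, -0.44 for sham with DPSC and 0.65 for MSCEPO with DPSC. Pairs with different numbers were not compared, so whether the numbers mark a pairing or a batch was not tested. With the replicate number as a block (replicate block), 4 members were lower in MSC and 3 in MSCEPO than in NT, and the other counts did not change. Of the single-gene values under all alternatives, 241 lost a call and 104 gained one, and no called gene changed sign. A further 134, without a call in either fit, moved by more than the spread between replicates. The other 29449 did none of these, although values without a call could change sign. Counts and medians are outside these totals. The median of the 81 genes in MSC minus MSCEPO was -0.11 with all libraries and 0.08 without MSCEPO replicate 3. Depth is unknown, so its limit on single genes could not be given, and for weakly expressed members rlog shrinks differences.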
